A study of Mus musculus with 8 samples.

Results

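The mitotic cell cycle genes described here are 50 mouse genes for cyclins, cyclin-dependent kinases, spindle checkpoint proteins, replication factors and mitotic kinases. They were chosen by name, with kinesins left out, and each symbol was matched to its Ensembl identifier among the 24988 rows of the deposited matrix. All 50 were found. All 50 also passed the filter on low values and were among the 22027 genes tested. The series holds 8 RNA-seq libraries of adult testis, 4 from mice labelled Kpna2-/- and 4 from mice labelled wild type (WT). Its title concerns male infertility on loss of Kpna2, one of the importin alpha proteins that bring cargo proteins into the nucleus. The labels used here give neither strain, exact age nor allele, and they do not say whether each library is a separate animal. All p-values therefore rest on the spread among libraries, which may be partly technical. Each library had 31133443 to 37797812 reads counted in genes, and the 50 genes had between 47 and 6701 reads each in a library.

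A cell divides after cyclins have switched on their partner kinases in a fixed order, first for DNA replication and then for mitosis. Licensing factors load the MCM helicase on origins before replication, and the spindle checkpoint holds back the anaphase-promoting complex until every chromosome is attached. In the testis, spermatogonia and some somatic cells divide by mitosis, whereas spermatocytes pass through meiosis with many of the same proteins and with a few germ cell relatives such as Ccna1 and Aurkc. In RNA of a whole tissue, fewer cells of a type and less RNA per cell cannot be told apart.

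Levels are in CPM (read counts that the authors scaled by library), and library numbers are those of the labels. Kpna2 itself was not lower under the knockout label. It had 15.3, 20.2, 19.4 and 21.7 CPM in the libraries labelled knockout 1 to 4, against 14.0, 15.1, 14.0 and 12.4 CPM in those labelled wild type (limma log2 fold change 0.44, SE 0.10, adjusted p = 0.0079). Every library labelled knockout was higher than every library labelled wild type, and the exact two-sided permutation test gave p = 0.029, the smallest that 70 assignments of the libraries allow. The exons that the allele alters were not given in the sources used here, and a count over the whole gene does not show whether functional transcript was made. Whether the names of the groups were exchanged in the matrix, which would turn every direction given here, cannot be told from these values. Groups are therefore called the libraries labelled knockout and labelled wild type throughout. The tissue label held against its defining markers, with Prm2, a protamine of elongating spermatids, between 5354 and 7194 CPM in the libraries labelled knockout and between 5694 and 6568 CPM in those labelled wild type. None of the 5 epididymis markers looked for had a row in the matrix.

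Promoter sequences are shown for the members with the smallest p among those that passed the test, where the RefSeq table held an entry. Of the 50 members, 40 had at least 1 promoter in that table, on GRCm38.p6, from 250 bases before to 50 bases after the annotated start. Ccna2 and Mcm4 were not among them. The Bub1b window lies at chr2:118597961-118598260 on the plus strand, that of Ccnd3 (the first of 2 entries) at chr17:47504801-47505100 on the plus strand, that of Ccne1 at chr7:38107441-38107740 on the minus strand and that of Aurkc at chr7:6995135-6995434 on the plus strand. Capitals mark matches to the CHR motif (TTTGAA), which is known as a binding site of the MuvB complex in cell cycle promoters, and to the CCAAT box, each searched on both strands.
Bub1b: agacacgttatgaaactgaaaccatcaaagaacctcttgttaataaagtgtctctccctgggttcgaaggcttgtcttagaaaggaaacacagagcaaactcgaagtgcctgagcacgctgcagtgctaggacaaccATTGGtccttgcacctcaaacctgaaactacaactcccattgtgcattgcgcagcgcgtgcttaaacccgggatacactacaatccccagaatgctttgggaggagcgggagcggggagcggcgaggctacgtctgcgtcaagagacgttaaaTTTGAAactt
Ccnd3: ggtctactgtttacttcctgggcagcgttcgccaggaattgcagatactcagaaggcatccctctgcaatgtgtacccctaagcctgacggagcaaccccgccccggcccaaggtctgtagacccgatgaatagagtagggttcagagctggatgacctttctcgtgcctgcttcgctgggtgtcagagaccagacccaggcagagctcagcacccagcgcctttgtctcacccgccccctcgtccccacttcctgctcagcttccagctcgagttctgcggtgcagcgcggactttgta
Ccne1: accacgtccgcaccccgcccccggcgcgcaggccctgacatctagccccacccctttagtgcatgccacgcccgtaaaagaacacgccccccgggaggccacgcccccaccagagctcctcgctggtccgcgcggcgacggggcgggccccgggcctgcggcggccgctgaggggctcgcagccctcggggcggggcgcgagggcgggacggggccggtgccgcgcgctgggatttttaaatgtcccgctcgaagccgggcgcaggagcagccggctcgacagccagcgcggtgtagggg
Aurkc: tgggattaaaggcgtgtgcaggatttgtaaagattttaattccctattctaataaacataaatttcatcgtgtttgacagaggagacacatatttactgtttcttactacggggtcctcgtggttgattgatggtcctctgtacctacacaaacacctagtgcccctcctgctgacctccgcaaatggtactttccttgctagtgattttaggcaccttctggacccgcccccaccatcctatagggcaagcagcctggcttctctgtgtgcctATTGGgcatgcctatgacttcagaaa
In these windows Bub1b held 1 CHR match and 1 CCAAT match, which reads ATTGG on this strand, and Aurkc held 1 CCAAT match. The printed Ccnd3 and Ccne1 windows held neither motif nor an E2F motif (TTCCCGC or TTGGCGC). Bub1b was lower and the other 3 genes were higher in the libraries labelled knockout.

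Of the 50 members, 3 rose (Ccnd3, Ccne1 and Aurkc) and 4 fell (Bub1, Bub1b, Ccna2 and Mcm4) in the libraries labelled knockout, and 43 did not pass the test, which was a limma adjusted p under 0.05 over all tested genes. That is 14.0% of the members, where 16.9% of all tested genes passed, 8.62% higher and 8.32% lower. The share among the members was near the background, so the number of calls is not a result about these genes. The edgeR quasi-likelihood test on the reads recovered from the matrix called 3 higher and 4 lower, beside 8.61% and 8.16% of all genes (16.8% in all). DESeq2 called 3 higher and 5 lower, beside 9.31% and 8.75% of all genes (18.1% in all), the added gene being Tpx2. At an unadjusted limma p under 0.05, 4 members were higher and 15 lower, beside 15.0% and 15.2% of all tested genes (30.2% in all). Groups did not overlap for 2 members higher and 5 lower, beside 10.1% and 10.7% of all tested genes (20.9% in all).

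The log2 fold changes of the members, taken on log2(CPM + 0.5) as labelled knockout minus labelled wild type, were small. They ran between -0.45 and 0.43, with a median of -0.09 and a median size of 0.12, where all tested genes had a median of -0.01 and a median size of 0.13. Among members that passed, the median size was 0.33. A log2 fold change below 0 was found for 40 of 50 members, 80.0%, where 52.4% of all tested genes were below 0. The mean deviation of the 50 genes from their wild-type mean was -0.06, -0.06, -0.09 and -0.06 on the log2 scale in the libraries labelled knockout 1 to 4. In those labelled wild type 1 to 4 it was 0.02, 0.00, 0.01 and -0.04. The mean deviation was thus below 0 in each library labelled knockout but was small beside the change of the 7 genes that passed. Wild type 4, at -0.04, lay near the libraries labelled knockout. The summed CPM of the 50 genes overlapped, at 2443 to 2586 in the libraries labelled knockout against 2519 to 2687 in those labelled wild type. Not every role shared the shift. For the 7 mitotic kinases and partners the mean deviation ran from -0.10 to 0.10 in the libraries labelled knockout and from -0.03 to 0.03 in those labelled wild type. Scaling by median ratios, an alternative to the scaling of the matrix, moved the median of all genes by less than 0.01.

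**Figure D1:**
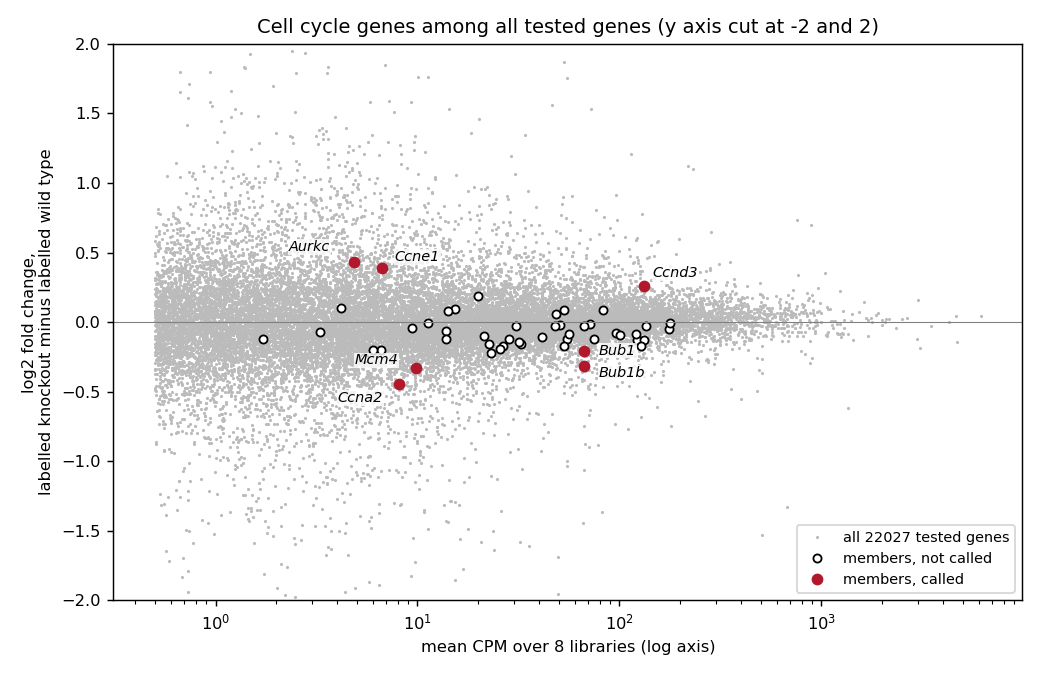
Each small grey point is 1 of 22027 tested genes, with its mean CPM over 8 libraries on a log x axis and its log2 fold change, labelled knockout minus labelled wild type, on the y axis, which leaves out 67 genes beyond -2 or 2. Large points are the 50 cell cycle genes, filled and named where they passed the limma test: they lie close to 0, with 40 of them below it.

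**Figure D2:**
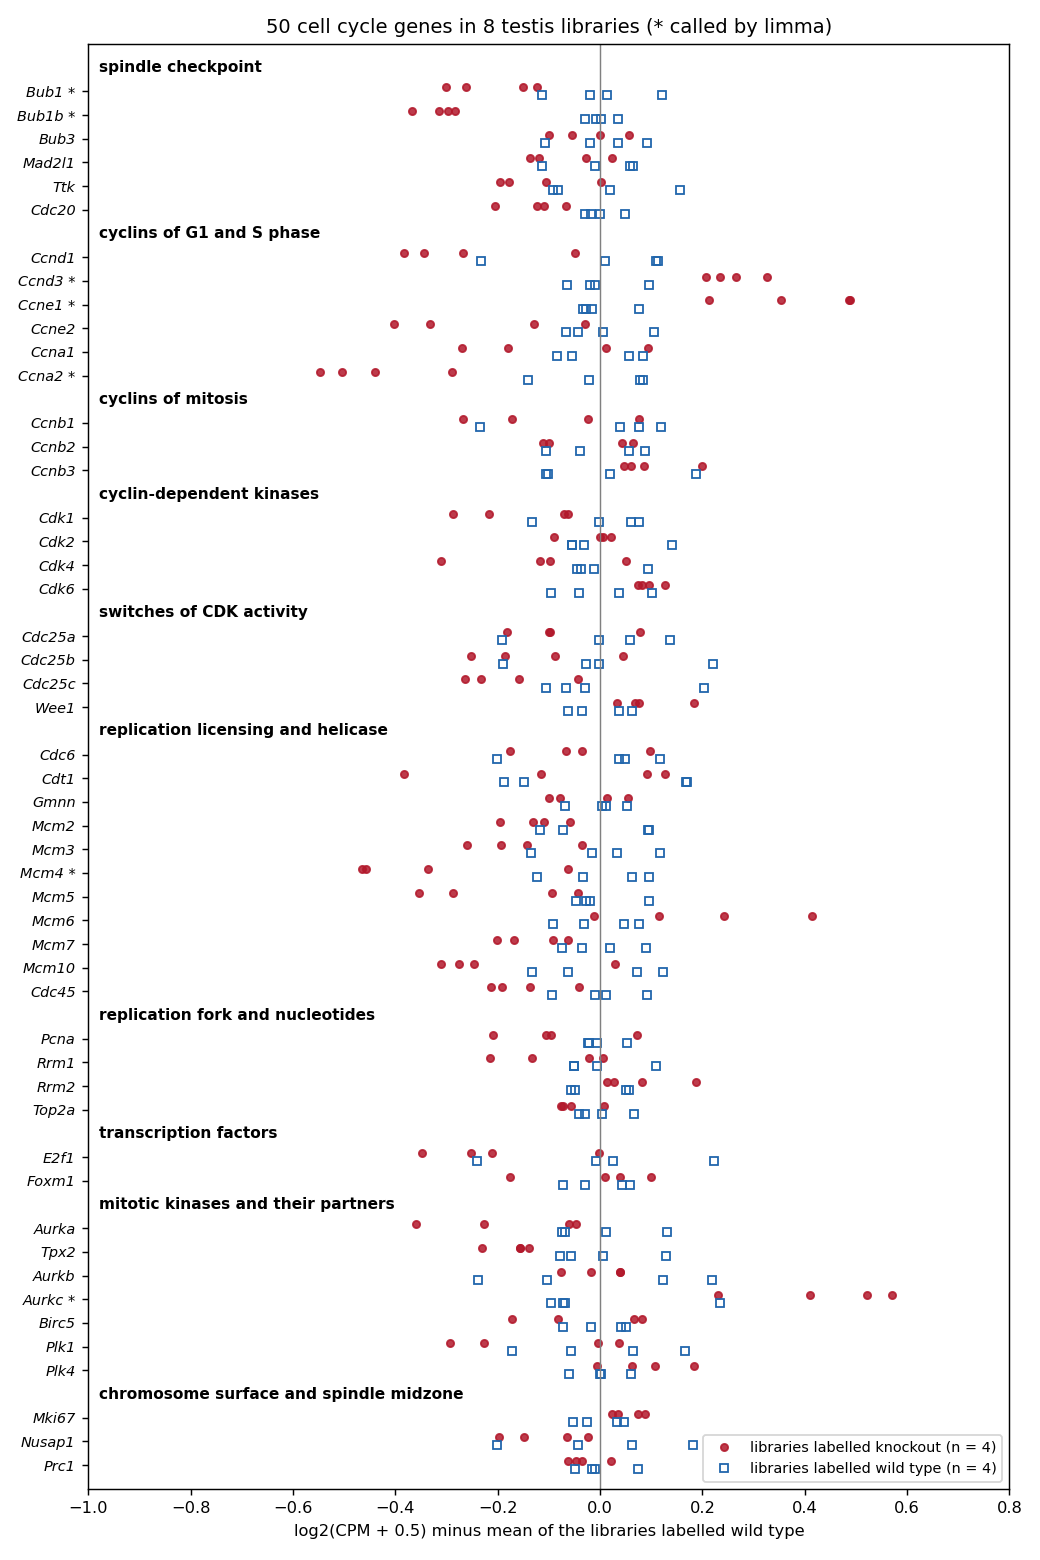
Each row is 1 of the 50 genes, by role, and each point 1 library (red circles labelled knockout, blue open squares labelled wild type, n = 4 each), placed by its log2(CPM + 0.5) minus the gene's mean in the libraries labelled wild type. Asterisks mark the 7 genes that passed the limma test, and for most genes the red and blue points overlap.

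All 6 spindle checkpoint genes had a log2 fold change below 0, with a median log2 fold change of -0.12, and 2 fell. Beside them, 80.0% of the 50 members and 52.4% of all tested genes were below 0, and 8.32% of all tested genes fell. Bub1b encodes BubR1, the checkpoint protein that binds and blocks Cdc20. It had 60.1, 57.2, 59.4 and 60.7 CPM in the libraries labelled knockout, against 73.6, 72.5, 75.8 and 74.1 CPM in those labelled wild type. The groups were far apart and each was narrow, and Bub1b had the smallest adjusted p of the 50 genes (log2 fold change -0.32, SE 0.05, limma adjusted p = 0.00039). The fall came to 59.3 ± 1.52 against 74.0 ± 1.37 CPM (SD, n = 4 each), and it passed in all 19 alternatives. Bub1, the kinase that brings checkpoint proteins to the kinetochore, had 59.6, 64.4, 57.9 and 65.6 CPM in the libraries labelled knockout, against 72.2, 70.5, 77.8 and 66.0 CPM in those labelled wild type. The groups only just did not overlap, since knockout 4 and wild type 4 were nearly equal (log2 fold change -0.21, SE 0.06, limma adjusted p = 0.032). The call of Bub1 was lost in 8 of 19 alternatives, among them leaving out knockout 1 or 3 or wild type 1, 2 or 3, with adjusted p between 0.015 and 0.098 over the 19.

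The other 4 checkpoint genes did not pass. Cdc20, the activator of the anaphase-promoting complex, had 117, 111, 122 and 118 CPM in the libraries labelled knockout, against 132, 128, 126 and 125 CPM in those labelled wild type. Every library labelled knockout was lower, but the difference missed the threshold (log2 fold change -0.13, SE 0.05, limma adjusted p = 0.083). Mad2l1, whose protein joins BubR1 in the checkpoint complex, was the least abundant of the 6 per kilobase of exon and had 13.9, 14.4, 12.8 and 13.0 CPM, against 14.8, 14.8, 13.1 and 14.1 CPM in the libraries labelled wild type. Its groups overlapped, as did those of the checkpoint kinase gene Ttk (53.0 ± 3.39 against 57.6 ± 4.75 CPM) and of Bub3 (50.6 ± 2.41 against 51.5 ± 3.03 CPM), with limma adjusted p between 0.25 and 0.83 for the 3 genes. Summed over the 6 genes, the libraries labelled knockout held 350.2 to 363 CPM and those labelled wild type 386 to 404 CPM, with no overlap. The sum includes Bub1b, Bub1 and Cdc20, whose groups were each apart. It is therefore no separate result about Mad2l1, Ttk and Bub3, whose groups overlapped.

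The cyclins of G1 and S phase went both ways. Of 6 genes, Ccnd3 and Ccne1 rose and Ccna2 fell, beside 8.62% higher and 8.32% lower of all tested genes. Ccnd3, a D cyclin that pairs with Cdk4 and Cdk6, had 150.3, 138, 144 and 141 CPM in the libraries labelled knockout, against 128, 118, 114 and 119 CPM in those labelled wild type. Every library labelled knockout was higher (log2 fold change 0.26, SE 0.05, limma adjusted p = 0.0026), and the call held in all 19 alternatives. The exons of Ccnd3 overlap those of Bysl on the opposite strand over 361 bases in GENCODE M21, and the strand setting of the counting was not given in the sources used here. Bysl did not pass (log2 fold change 0.04, limma adjusted p = 0.72). A pseudogene, Ccnd3-ps, averaged 2.22 CPM over the 8 libraries and was itself higher (log2 fold change 0.63, limma adjusted p = 0.012), and the counting of reads that match both was also not given.

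Ccne1, the E cyclin that activates Cdk2 at the entry to S phase, had 6.68, 8.18, 8.20 and 7.42 CPM in the libraries labelled knockout, against 5.58, 6.04, 5.55 and 5.63 CPM in those labelled wild type. The groups did not overlap (log2 fold change 0.39, SE 0.09, limma adjusted p = 0.012), and the call held in all 19 alternatives. Its paralog Ccne2 went the other way without passing, with 22.6, 24.3, 18.6 and 19.6 CPM in the libraries labelled knockout, against 23.6, 24.8, 26.7 and 24.0 CPM in those labelled wild type (log2 fold change -0.22, SE 0.08, limma adjusted p = 0.086). The groups of Ccne2 overlapped through knockout 2.

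Ccna2 encodes the A cyclin of dividing somatic cells and spermatogonia. It had 6.28, 7.61, 6.49 and 6.81 CPM in the libraries labelled knockout, against 9.999, 8.49, 9.27 and 9.96 CPM in those labelled wild type. This was the largest fall among the 50 genes, with a mean of 6.80 ± 0.585 against 9.43 ± 0.710 CPM (SD, n = 4 each), a log2 fold change of -0.45 (SE 0.09, limma adjusted p = 0.0045) and no overlap between the groups. The call held in all 19 alternatives. The exons of Ccna2 overlap those of Exosc9 on the opposite strand over 428 bases, and Exosc9 was higher (log2 fold change 0.24, limma adjusted p = 0.032). In all, 18 of the 50 members share exon bases with another annotated gene. Among them are Ccnd1 with LTO1 (818 bases), Ccne2 with Ints8 (474 bases) and Cdc25b with Spef1 (92 bases). LTO1 averaged 25.0 CPM, Ints8 22.8 CPM and Spef1 51.2 CPM, so the values of these members carry the same uncertainty of strand. Ccna1, the A cyclin that mouse spermatocytes need for the first meiotic division, had 102, 109, 124 and 132 CPM in the libraries labelled knockout, against 128, 119, 131 and 116 CPM in those labelled wild type. The groups overlapped over most of their range (log2 fold change -0.09, SE 0.07, limma adjusted p = 0.47). Ccnd1, another D cyclin and the least abundant of the 6 per kilobase, had 5.72, 4.43, 4.84 and 4.57 CPM in the libraries labelled knockout. In those labelled wild type it had 6.44, 5.98, 6.46 and 4.98 CPM, so that the groups overlapped through knockout 1 and wild type 4 (log2 fold change -0.26, SE 0.11, limma adjusted p = 0.14).

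**Figure D3:**
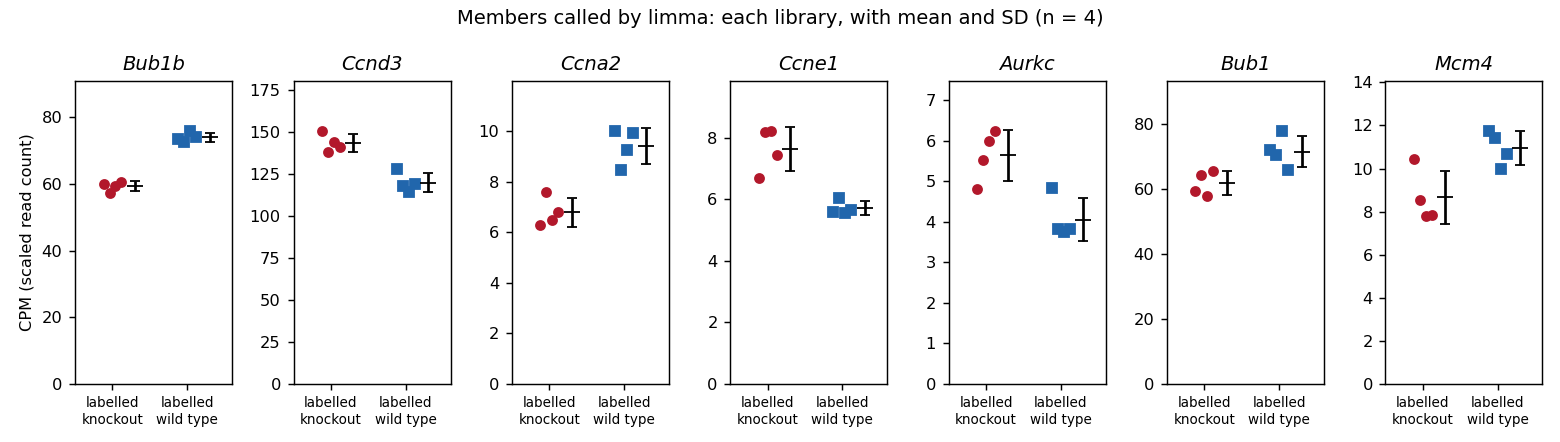
Each panel is 1 of the 7 cell cycle genes that passed the limma test, with 1 point per library, libraries labelled knockout on the left, and the group mean with SD bars beside them (n = 4), in CPM on an axis that starts at 0. Points of the groups do not overlap for Bub1b, Ccnd3, Ccna2, Ccne1 and Bub1, and overlap for Aurkc and Mcm4.

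None of the 3 cyclins of mitosis passed. Ccnb2, which with Ccnb1 activates Cdk1, had 141, 127, 128 and 143 CPM in the libraries labelled knockout, against 143, 133, 146 and 127 CPM in those labelled wild type. Ccnb1 had 18.1, 19.3, 21.5 and 23.1 CPM, against 23.1, 23.8, 22.5 and 18.5 CPM in the libraries labelled wild type. The groups of both genes overlapped almost completely. Ccnb3, a B-type cyclin of germ cells on chromosome X, had 4.29, 4.20, 4.16 and 4.69 CPM in the libraries labelled knockout, against 3.71, 3.70, 4.07 and 4.64 CPM in those labelled wild type. Limma adjusted p for the 3 genes ran between 0.53 and 0.80. The 95% interval of the log2 fold change was -0.15 to 0.10 for Ccnb2, the most abundant of the 50 genes per kilobase. Ccnb1-ps and Ccnb2-ps, pseudogenes of the 2 B cyclins, also have rows in the matrix, averaging 29.5 and 1.65 CPM, so the split of reads between gene and copy is uncertain.

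The 4 cyclin-dependent kinases did not pass either, with limma adjusted p between 0.14 and 0.89. Cdk2, the partner of the A and E cyclins and a kinase that mouse spermatocytes need, had 73.2, 72.4, 72.1 and 67.7 CPM in the libraries labelled knockout, against 70.5, 69.3, 69.4 and 79.6 CPM in those labelled wild type. Wild type 4 stood apart from the other 3 libraries of its group, and the groups overlapped. Cdk6, the least abundant of the 4 per kilobase, had 15.9, 16.3, 15.7 and 15.8 CPM, against 13.9, 16.001, 14.5 and 15.3 CPM in the libraries labelled wild type. Cdk1, the kinase of mitotic and meiotic entry, averaged 30.9 ± 2.39 against 34.5 ± 2.26 CPM, and Cdk4 averaged 27.2 ± 2.81 against 29.5 ± 1.36 CPM (SD, n = 4 each). The groups overlapped for all 4 kinases.

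Among the 4 genes that switch these kinases on or off, limma adjusted p ran between 0.15 and 0.59. Wee1, the kinase that holds Cdk1 inactive, had 58.3, 52.4, 54.0 and 53.7 CPM in the libraries labelled knockout, against 53.5, 52.6, 49.98 and 49.0 CPM in those labelled wild type, and the groups overlapped. The Cdc25 phosphatases undo the work of Wee1. Cdc25b had 1.87, 1.66, 1.52 and 1.43 CPM in the libraries labelled knockout, against 1.51, 1.79, 1.75 and 2.18 CPM in those labelled wild type, and Cdc25c had 27.2, 23.8, 23.2 and 25.1 CPM, against 27.4, 32.3, 26.7 and 26.0 CPM. Cdc25a, the most abundant of the 3 phosphatases per kilobase, averaged 93.2 ± 7.24 against 98.3 ± 9.33 CPM (SD, n = 4 each). The groups overlapped for all 3.

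Of 11 genes for replication licensing and the helicase, Mcm4 fell and 10 did not pass. Mcm2 to Mcm7 encode the 6 subunits of the MCM helicase. Mcm4 had 10.5, 8.55, 7.78 and 7.83 CPM in the libraries labelled knockout, against 11.7, 11.4, 9.99 and 10.7 CPM in those labelled wild type. The groups overlapped through knockout 1 and wild type 3 (log2 fold change -0.33, SE 0.10, limma adjusted p = 0.038). The call of Mcm4 was lost in 7 of 19 alternatives, among them leaving out knockout 2, 3 or 4 or wild type 1, 2 or 4, with adjusted p between 0.0068 and 0.11 over the 19. Mcm7, the most abundant of the 11 per kilobase, had 124, 121, 133 and 130.3 CPM in the libraries labelled knockout, against 148, 141, 136 and 132 CPM in those labelled wild type (log2 fold change -0.13, SE 0.05, limma adjusted p = 0.10). The groups overlapped through knockout 3 and wild type 4. Mcm2 averaged 13.2 ± 0.531 against 14.4 ± 1.15 CPM, Mcm3 21.2 ± 1.44 against 23.8 ± 1.75 CPM and Mcm5 24.0 ± 2.53 against 27.4 ± 1.28 CPM (SD, n = 4 each). Mcm6 was the exception in sign, with 21.4 ± 2.79 against 18.6 ± 1.01 CPM, and it did not pass (log2 fold change 0.19, limma adjusted p = 0.16).

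Mcm10, a factor that acts with the helicase when origins fire, had 5.90, 7.24, 5.62 and 5.76 CPM in the libraries labelled knockout, against 7.48, 6.76, 7.76 and 6.42 CPM in those labelled wild type. It was the least abundant of the 11 per kilobase, and its groups overlapped (limma adjusted p = 0.22). Cdc45, a part of the active helicase, averaged 30.02 ± 1.65 against 33.3 ± 1.78 CPM (SD, n = 4 each, limma adjusted p = 0.13). The loading factors Cdc6 and Cdt1, and Gmnn, whose protein geminin blocks Cdt1, had limma adjusted p between 0.78 and 0.80. In all, 10 of the 11 licensing genes were below 0, beside 80.0% of the 50 members and 52.4% of all tested genes. The licensing genes had a median log2 fold change of -0.13. Their mean deviation ran from -0.19 to -0.05 in the libraries labelled knockout and from -0.04 to 0.08 in those labelled wild type, and the step between the nearest libraries of the groups was under 0.01.

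None of the 4 genes of the replication fork and of nucleotide supply passed. Pcna, the sliding clamp of the polymerases, had 53.9, 61.0, 50.1 and 54.2 CPM in the libraries labelled knockout, against 60.2, 57.8, 57.0 and 57.2 CPM in those labelled wild type. Mki67, the gene of the proliferation marker Ki-67, which coats mitotic chromosomes, had 50.6, 48.4, 50.2 and 48.8 CPM, against 49.2, 45.9, 48.7 and 46.8 CPM in the libraries labelled wild type. These common markers of proliferating cells overlapped between the groups, with a 95% interval of the log2 fold change of -0.22 to 0.05 for Pcna and -0.05 to 0.16 for Mki67. Top2a, the topoisomerase that untangles chromosomes, averaged 173 ± 4.75 against 179 ± 6.09 CPM (SD, n = 4 each, limma adjusted p = 0.50). The ribonucleotide reductase subunit Rrm2, the least abundant of the 4 per kilobase, had 14.0, 13.9, 14.6 and 15.7 CPM in the libraries labelled knockout and 14.3, 13.3, 14.2 and 13.2 CPM in those labelled wild type. Rrm1, the other subunit, averaged 97.3 ± 6.89 against 104 ± 5.55 CPM (limma adjusted p = 0.33). Pcna-ps2, a pseudogene of Pcna, averaged 46.9 CPM over the 8 libraries, so the level of Pcna is uncertain.

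The 2 transcription factors that drive these genes did not pass. Foxm1, a factor of the mitotic genes, had 180.0, 158, 184 and 192 CPM in the libraries labelled knockout, against 184, 175, 186 and 170.0 CPM in those labelled wild type (limma adjusted p = 0.95). E2f1, a factor of the genes of G1 and S phase, had 6.42, 5.32, 5.49 and 4.95 CPM, against 6.56, 7.60, 5.37 and 6.39 CPM in the libraries labelled wild type (limma adjusted p = 0.26). The groups of both overlapped.

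Of the 7 mitotic kinases and their partners, Aurkc rose. Aurkc, an Aurora kinase largely restricted to germ cells and needed for normal mouse sperm, had 4.82, 5.52, 6.004 and 6.23 CPM in the libraries labelled knockout, against 4.84, 3.81, 3.74 and 3.83 CPM in those labelled wild type. The groups overlapped because wild type 1 lay just above knockout 1, while the other 6 libraries were apart (log2 fold change 0.43, SE 0.12, limma adjusted p = 0.020). The call was lost in 5 of 19 alternatives, when knockout 3 or 4 or wild type 2, 3 or 4 was left out, with adjusted p between 0.0084 and 0.059 over the 19. Aurkb, the Aurora kinase of the passenger complex in all dividing cells, had 11.1, 11.6, 10.6 and 11.6 CPM, against 10.4, 12.3, 9.45 and 13.2 CPM in the libraries labelled wild type (limma adjusted p = 0.99). Aurka, the spindle pole kinase and the most abundant of the 7 per kilobase, had 106, 116, 129.9 and 131 CPM in the libraries labelled knockout, against 129, 129, 149 and 137 CPM in those labelled wild type. Its groups overlapped (log2 fold change -0.17, SE 0.07, limma adjusted p = 0.12).

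Tpx2, the activator of Aurora A, averaged 50.01 ± 1.41 against 56.4 ± 3.77 CPM (SD, n = 4 each), and every library labelled knockout was lower. It missed the limma threshold at an adjusted p of 0.055, where DESeq2 gave 0.037, and it also passed in limma when wild type 4 was left out. Plk1 (71.6 ± 8.07 against 77.8 ± 7.92 CPM), a kinase of mitotic entry, Plk4 (85.3 ± 4.77 against 80.2 ± 2.78 CPM), the kinase of centriole copying, and Birc5 (47.7 ± 4.05 against 48.5 ± 1.93 CPM), the survivin subunit of the passenger complex, did not pass, with limma adjusted p between 0.30 and 0.83. Nusap1, a protein of the spindle near chromosomes, had 37.5, 41.1, 38.7 and 42.3 CPM in the libraries labelled knockout, against 41.7, 44.9, 48.8 and 37.3 CPM in those labelled wild type (limma adjusted p = 0.37). Prc1, which bundles the midzone of the anaphase spindle, averaged 65.9 ± 1.72 against 67.4 ± 2.51 CPM (limma adjusted p = 0.72). All 5 of these genes other than Tpx2 overlapped between the groups.

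Scaled to exon length, taken as all annotated exons of a gene merged, the 50 genes differed widely in level. Ccnb2 led with 88.1 ± 5.67 CPM per kilobase in the libraries labelled knockout and 89.7 ± 5.53 CPM per kilobase in those labelled wild type (SD, n = 4 each). Ccna1 and Cdc20 followed with 63.7 ± 7.38 and 62.6 ± 2.52 CPM per kilobase in the libraries labelled knockout, against 67.3 ± 3.83 and 68.3 ± 1.66 CPM per kilobase in those labelled wild type, and these 2 did not differ from each other beyond their spread. Aurka came next and then Plk1, at 47.7 ± 4.84 and 32.5 ± 3.67 CPM per kilobase in the libraries labelled knockout, against 53.7 ± 3.64 and 35.4 ± 3.60 CPM per kilobase. On this scale the upper end of the order was held by genes of chromosome segregation and by the meiotic cyclin Ccna1. Mki67, at 4.92 against 4.74 CPM per kilobase, ranked 33rd and 34th of 50. The order depends on that choice of length. In CPM without it, Top2a (173 against 179 CPM) and Foxm1 (178 against 179 CPM) had the highest means. At the lower end were Mcm10 (0.797 against 0.923), Ccnb3 (0.950 against 0.883) and Cdc25b (0.434 against 0.485 CPM per kilobase). Of the genes that passed the test, Bub1b ranked 15th in the libraries labelled knockout and 11th in those labelled wild type, and Ccna2 ranked 43rd and 39th.

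Relatives of which one is known for meiosis, or which serve the same step, were compared within each library as differences of log2(CPM + 0.5). The log2 ratio of Ccna2 to Ccna1 was -3.92, -3.75, -4.16 and -4.18 in the libraries labelled knockout, against -3.62, -3.73, -3.75 and -3.48 in those labelled wild type. The groups did not overlap, with a difference of -0.36 and an exact two-sided permutation p = 0.029, the smallest possible (adjusted p = 0.071 over 5 pairs). The log2 ratio of Ccne1 to Ccne2 was -1.68, -1.51, -1.13 and -1.34 in the libraries labelled knockout, against -1.99, -1.95, -2.17 and -1.998 in those labelled wild type. Here too the groups were apart, with a difference of 0.61 (exact permutation p = 0.029, adjusted p = 0.071). The log2 ratio of Aurkb to Aurkc averaged 0.94 ± 0.16 against 1.37 ± 0.29 (SD, n = 4 each), with overlap between the groups and a difference of -0.44 (exact permutation p = 0.057, adjusted p = 0.095). Ccna2, Ccne1 and Aurkc each passed the limma test on their own in the same libraries, and their relatives did not. The ratios that hold them are therefore not separate from the changes of those genes. Ccnb1 to Ccnb2 differed by -0.07 (exact permutation p = 0.51, adjusted p = 0.64) and Cdc25b to Cdc25c by 0.05 (exact permutation p = 0.71, adjusted p = 0.71). None of the 5 pairs passed at an adjusted 0.05, which 4 libraries a group would allow only if more pairs reached the smallest p.

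**Figure D4:**
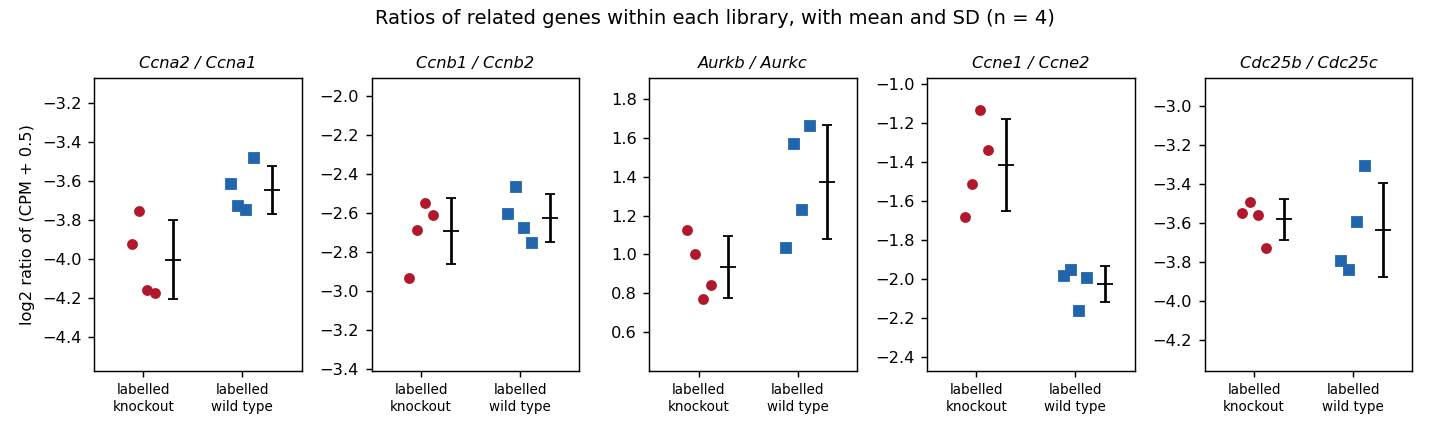
Points are libraries and the y axis is the log2 ratio of the first gene to the second, from log2(CPM + 0.5), for 5 pairs of relatives, with libraries labelled knockout left of those labelled wild type in each panel and the mean with SD bars (n = 4) beside them. The groups are apart for Ccna2 to Ccna1, lower under the knockout label, and for Ccne1 to Ccne2, higher under the knockout label, and overlap for the other 3 pairs.

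The members lie on 17 chromosomes, with 9 each on chromosomes 2 and 7, and the tested genes next to each member were also read from the same limma fit. This was done after the values of the members had been seen. Around Ccne1 on chromosome 7, of the 20 nearest tested genes (10 on each side in GENCODE M21), 13 rose and 1 fell, with a median log2 fold change of 0.57. For the other 49 members together, 160 of 963 neighbours passed in either direction, 16.6%, the median was 3 of 20, and no other member had more than 10 of 20 passing or more than 6 rising. The median log2 fold change of neighbours stayed between -0.12 and 0.17 for those 49. Its upper end was that of Aurkc, which also rose and lies on chromosome 7, with 3 of 20 neighbours higher and 1 lower. Ccne1 therefore sat in a stretch where most tested genes were higher. Its own rise of 0.39 was below the median of its neighbours of all gene types, most of which are non-coding genes or pseudogenes.

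Of the 20 neighbours of Ccne1, 7 are protein-coding in the annotation, and of these 3 rose and 1 fell. Zfp536 (log2 fold change 0.23), Tshz3 (0.21) and Plekhf1 (-0.03) did not pass. The rise of Ccne1 was below those of Pop4 and Uri1 and above the log2 fold changes of the other protein-coding neighbours. Pop4, a subunit of ribonuclease P, averaged 29.4 ± 1.78 CPM in the libraries labelled knockout against 10.97 ± 4.74 CPM in those labelled wild type (log2 fold change 1.46, limma adjusted p = 9.7e-05). Uri1, a prefoldin-like protein, averaged 136 ± 13.9 against 100.1 ± 6.35 CPM (log2 fold change 0.43, limma adjusted p = 0.00076). Zfp507, a zinc finger gene, averaged 48.6 ± 3.73 against 40.6 ± 2.09 CPM (log2 fold change 0.25, limma adjusted p = 0.015). The remaining 10 of the 13 that rose were 6 long non-coding or antisense genes and 4 pseudogenes, whose values are uncertain where copies share reads. The gene that fell was 1600014C10Rik, at 3.48 ± 0.327 against 6.40 ± 1.68 CPM. With 30 tested genes on each side, 31 of 60 rose and 3 fell, beside 8.62% higher and 8.32% lower of all tested genes. Most of the risers beyond the nearest 10 on the side of higher coordinates were annotated as pseudogenes. On the side of lower coordinates, beyond the nearest 10, only Gpatch1, Cep89 and Tdrd12 rose and Nudt19 fell. The libraries labelled wild type differed widely among themselves for some risers, with an SD above the mean. Among these were 4930505M18Rik (1.01 ± 1.98 CPM), Gm28453 (2.81 ± 3.70 CPM), Gm9271 (3.23 ± 5.34 CPM) and 4930558N11Rik (2.33 ± 2.74 CPM). The strain background of the groups is not given in the labels used here, and its part in these values was not tested.

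**Figure D5:**
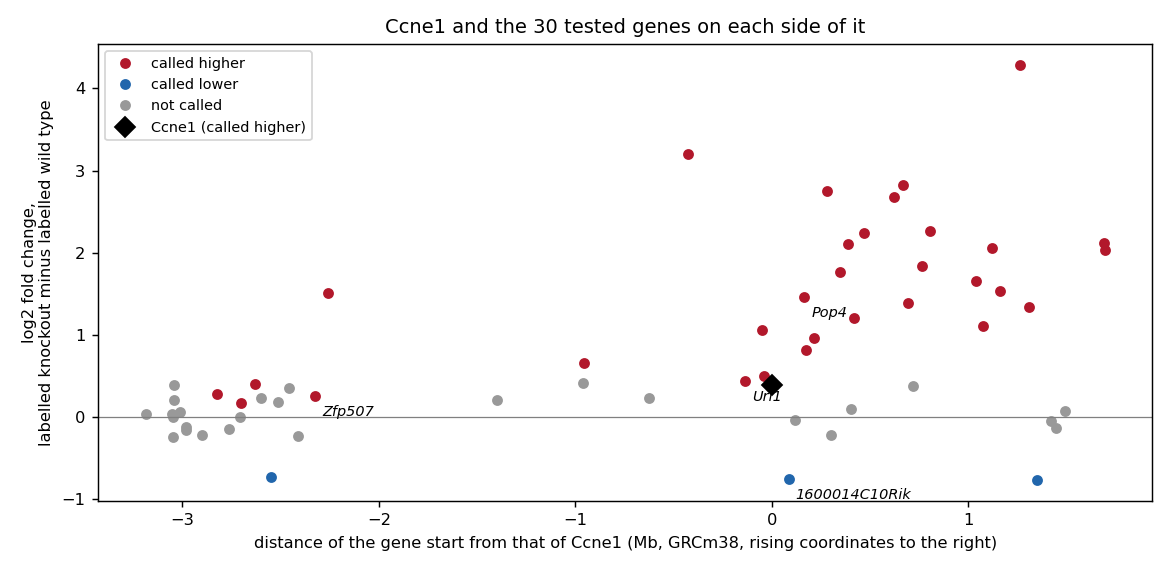
Points are Ccne1 (black diamond) and the 30 tested genes on each side of it, with the distance of the gene start from that of Ccne1 in Mb on GRCm38 on the x axis and the log2 fold change, labelled knockout minus labelled wild type, on the y axis. Red genes rose (31), blue genes fell (3) and grey genes did not pass the limma test (26).

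Other genes of the cell cycle were read by complex from the same fit. Of 145 such genes, 5 rose and 13 fell, 12.4% beside the background of 16.9%, with a median log2 fold change of -0.03 and 93 of 145 (64.1%) below 0. Among 11 other cyclins and partners of the kinases, Ccnd2 and Cks1b fell. Ccnd2, the D cyclin of differentiating spermatogonia, had 3.24, 4.32, 3.36 and 3.08 CPM in the libraries labelled knockout, against 6.38, 8.06, 6.16 and 6.68 CPM in those labelled wild type. The groups were far apart (log2 fold change -0.87, SE 0.12, limma adjusted p = 0.00023). Of the other D cyclins, Ccnd3 was higher, and Ccnd1 had the sign of Ccnd2 without passing (95% interval of its log2 fold change -0.50 to -0.02). The D cyclins were not tested against each other. Of 10 inhibitors and pocket proteins, Rb1, the brake on E2F factors, fell to 25.1 ± 1.23 against 31.3 ± 2.21 CPM (limma adjusted p = 0.0056). Cdkn1a, the inhibitor p21, fell to 10.2 ± 0.936 against 12.9 ± 0.617 CPM (SD, n = 4 each, limma adjusted p = 0.015).

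Of 15 other E2F and MuvB genes, Lin37, a MuvB subunit, rose to 31.4 ± 5.24 against 16.9 ± 0.228 CPM (log2 fold change 0.85, limma adjusted p = 5.7e-05), and no other passed. Lin37 also lies on chromosome 7, and 12 of its 20 nearest tested genes passed, 5 higher and 7 lower, beside 16.9% of all tested genes. Of 27 genes for origin recognition, GINS and replication enzymes, Orc1, the largest origin recognition subunit, rose to 8.67 ± 0.399 against 6.43 ± 0.373 CPM (limma adjusted p = 0.0049). Gins4 (log2 fold change -0.29), Fen1 (-0.37), Rfc3 (-0.29) and Rfc5 (-0.31) fell. Of 18 genes of the anaphase-promoting complex and its regulators, Anapc5 (-0.18) and Cdc16 (-0.25), both subunits, fell and none rose. Of 32 kinetochore and passenger genes, Cenpi (0.32) and Cenpf (0.31) rose and none fell. These 2 calls are 6.25% of the list, below the background of 16.9%, and 19 of its 32 genes were below 0. Of 18 condensin, cohesin and separase genes, Wapl, which releases cohesin, rose (0.22), while Ncapg2 (-0.24) and the separase inhibitor gene Pttg1 (-0.23) fell. Of 14 genes of the DNA damage checkpoint, Topbp1 (-0.21) fell.

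The CHR motif was found in a promoter of 13 of the 40 members in the RefSeq table (32.5%), beside 20.2% of all 27025 genes in the table. A CCAAT box was found for 29 of 40 (72.5%), beside 41.1% of all genes, and an E2F motif, TTCCCGC or TTGGCGC, for 13 of 40 (32.5%), beside 7.79%. The median log2 fold change of the members was -0.12 with the CHR motif and -0.08 without it, -0.10 with a CCAAT box and -0.05 without it, and -0.08 with an E2F motif and -0.09 without it. These differences between members were not tested. Of the 7 members that passed, 5 had an entry, and among these the CHR motif was found for Bub1b. These are matches of letters in windows of 300 bases, not binding sites shown to be used.

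Markers of cell types that divide, or that surround dividing cells, were set beside these results. The background for their counts is 16.9% of all tested genes passing, 8.62% higher and 8.32% lower. Of 10 tested markers of undifferentiated spermatogonia none passed, with summed levels of 103 to 112 CPM in the libraries labelled knockout and 109.5 to 116 CPM in those labelled wild type. Of 9 markers of differentiating spermatogonia 2 fell (Dmrt1 and Uchl1), with sums of 121 to 137 against 133 to 147 CPM. Those sums overlapped. In that list 7 markers were below 0. Kit (log2 fold change 0.20) and Stra8 (0.03) were above 0, and neither passed. Peritubular myoid and stromal markers moved furthest, with 7 of 11 lower, none higher and sums of 89.5 to 148 against 199 to 247 CPM. Leydig cell markers went 4 lower and 1 higher of 8, with sums of 746 to 1164 against 1123 to 1324 CPM. Of spermatocyte markers 1 of 12 rose and 2 fell, and the sums overlapped, at 1868 to 2002 against 1900 to 2000.0 CPM. Of the other lists, 2 of 11 Sertoli cell, 2 of 7 endothelial and 1 of 4 adipocyte markers fell and none rose, 1 of 9 round spermatid markers rose, and no marker of elongating spermatids (9) or of macrophages and lymphocytes (7) passed. The share that passed was 63.6% for the stromal list and 62.5% for the Leydig list. For the round spermatid, Sertoli cell, differentiating spermatogonia, spermatocyte, adipocyte and endothelial lists it was 11.1% to 28.6%. Those shares are nearer the background and rest on few genes. The part of the marker shifts in the values of the 50 genes was not tested. Without knockout 1 and 4, the libraries lowest in stromal, Leydig and adipocyte markers, an alternative chosen after seeing the data, 6 of the 7 members passed and Bub1 did not. The stromal sums of knockout 2 and 3, 148 and 143 CPM, also lie below every library labelled wild type, so the shift in stromal markers is present in that alternative too.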

How the data were processed

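Per the labels' protocols, testis RNA was taken with TRIzol, treated with DNase and made into libraries with a TruSeq kit. Trimmomatic, Subread, featureCounts and the build GRCm39 (mm39) are named in the submitters' processing notes, with no versions. The authors deposited a matrix of scaled signal, called CPM in the file, for 24988 genes and 8 libraries, with columns named kpn and control, matched to the titles by number. Column sums ran from 990244 to 1025489, and the scaling equalled edgeR's TMM sizes, so the values are not plain CPM. All values (100%, within 0.01) were whole multiples of 1 read, which gave back the read counts.

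Limma 3.58.1 in R 4.3.3 was fitted on log2(CPM + 0.5) with a trend of variance on level. It covered the 22027 genes whose mean over the 8 libraries reached 0.5 CPM, with Benjamini-Hochberg adjustment over all of them and a threshold of 0.05. Its alternatives, including edgeR 4.0.16 and DESeq2 1.42.0 on the recovered reads, are given in the closing section. A floor of 3 reads in a library corresponds to 0.0786 to 0.0968 CPM, for counting error only.

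The members, the other gene lists and the tests were chosen with earlier results of these data known. Values in every library are given for members that passed, both members of each pair of relatives, and the most and least abundant of each role; of other lists, up to 3 members with the smallest p are named, and further ones that passed were named after their values were seen. Lin54 was not analysed here. Symbols were found for 24890 identifiers. Gene positions, types and exon lengths came from GENCODE M21 on GRCm38, another build than that of the files, with no conversion of coordinates. Read counts of libraries of 1 group differed by a chi-square of 4.63 to 11.7 per degree of freedom, so no pair agreed within sampling noise.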

Additional observations from a re-analysis of the deposited data

Results flagged for a closer look

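Among 100 groups of 4 libraries (50 genes in both label groups), 3 held a library far from the other 3, where chance flags about 1 in 20 groups. The share of the group's range that lay in the gap to the nearest library was 0.924 for Aurkc among the libraries labelled wild type, where wild type 1 had 4.84 CPM and the others 3.74 to 3.83 CPM. The groups of Aurkc overlap only because this library lay just above knockout 1, which had 4.82 CPM. The share was 0.884 for Cdk2, where wild type 4 had 79.6 CPM and the others 69.3 to 70.5 CPM. It was 0.834 for Ccne1, where wild type 2 had 6.04 CPM and the others 5.55 to 5.63 CPM, still below every library labelled knockout.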

How the results depend on the processing

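Over 19 alternatives none of the 7 members that passed changed sign, and Bub1b, Ccna2, Ccne1 and Ccnd3 passed in every one. Of the 43 that did not pass, 8 changed sign in at least 1 alternative, all with log2 fold changes near 0 and none passing there. With 1 library left out, the log2 fold change ran from -0.0598 to 0.0066 for Bub3, -0.062 to 0.0027 for Ccnb2, -0.0342 to 0.0314 for Cdk2, -0.1361 to 0.034 for Cdt1, -0.0429 to 0.0492 for Foxm1, -0.0832 to 0.0691 for Aurkb and -0.0632 to 0.0221 for Birc5. Without knockout 1 and 4 it was 0.0014 for Bub3, 0.0031 for Cdk2 and 0.0311 for Cdc6, and with median ratio scaling 0.0012 for Aurkb. With 3 members higher and 4 lower in the reported test, the lower count was 2 without a variance trend. Leaving out 1 library at a time gave 2 to 3 members higher and 2 to 4 lower; Ccne2 passed without knockout 2, Mcm5 without knockout 1 and Tpx2 without wild type 4. Of the 145 other cell cycle genes, 5 were higher and 13 lower. These became 3 and 8 without a variance trend, 9 and 13 with DESeq2, 2 to 6 and 7 to 14 with 1 library left out, and 2 and 5 without knockout 1 and 4, an alternative chosen after seeing the data. That last setting also took all genes to 1228 higher and 1193 lower, against 1898 and 1833, from 2 knockout libraries in place of 4. The cause of the shifts without a variance trend and with DESeq2, and of the sign of Aurkb with median ratio scaling, was not tested.

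Same-numbered libraries did not deviate together (correlations of -0.03 to 0.04). Whether the numbers pair animals is not given in the labels used here, and these correlations cannot decide it. With the replicate number as a block, 3 members were higher and 3 lower, Bub1 no longer passing (adjusted p = 0.061), with 6 higher and 12 lower of the other cell cycle genes and 1768 higher and 1678 lower of all genes. The differences in log ratio were as reported, where 0.125 is the smallest exact p under the block and 0.057 with 1 library left out. With 1 library left out, the difference in the log2 ratio ran from -0.1193 to 0.0097 for Ccnb1 to Ccnb2, changing sign without knockout 1, and from -0.0153 to 0.1622 for Cdc25b to Cdc25c, changing sign without wild type 2, and neither pair passed. Kpna2 stayed higher under the knockout label, with a log2 fold change of 0.38 to 0.55 with 1 library left out.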
